A study of Citrullus lanatus with 26 samples.

Results

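miR164 is a conserved plant microRNA family, and its members were followed here in watermelon (Citrullus lanatus) fruit flesh. The members were all miRNA names that carry the miR164 family number in 2 sets of small RNA libraries, called the stage set and the genotype set. The stage set listed 2 such names of 208, cme-miR164b and cme-miR164c. The genotype set listed 76 such names of 1263. Many of these names carried the same counts in every library, and 1 name was kept per distinct pattern of counts, called a count vector, which left 41 miR164 vectors of 426. The first letters of a name give the plant in which the sequence was catalogued, cme for melon, aly for Arabidopsis lyrata and bdi for Brachypodium distachyon among them.

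miR164 pairs with the transcripts of a group of NAC domain transcription factors and guides their cleavage. In Arabidopsis these targets include the CUP-SHAPED COTYLEDON genes, which set the boundaries between organs, and NAC genes of lateral root growth and leaf ageing. Other NAC proteins take part in fruit ripening, for which tomato is the best studied case. No target transcript was measured in these libraries.

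The stage set held 18 libraries of the cultivar 97103 (Citrullus lanatus subsp. vulgaris) at 0, 1, 5, 10, 20 and 30 DAP, the unit of fruit age in the labels, with 3 replicates at each age. The genotype set held 8 libraries, 97103 and the germplasm PI296341FR at 10 and 30 DAP, with 2 replicates in each group. All 26 libraries came from flesh, and the labels give no treatment and no introduced gene. Nothing in the labels ties a replicate to a plant or fruit of its own, and the p-values below therefore describe the spread among libraries, which may be technical. Each genotype is represented by a single line.

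Counts summed over all listed names ran from 62050 to 153755 per stage library and from 991234 to 60765998 per genotype library, where names that share counts enter the sum repeatedly. Counts were scaled with edgeR's trimmed-mean (TMM) factors to a level per 1000000 listed counts, written as CPM below. The factors ran from 0.531 to 1.40 in the stage libraries and from 0.406 to 3.21 in the genotype libraries, with the highest in PI296341FR replicate 1 at 30 DAP. The common dispersion, the squared coefficient of variation between replicates beyond counting error, was 0.0323 among stage libraries against 0.422 among genotype libraries, so the stage set resolves far smaller changes. A change is called below where the Benjamini-Hochberg adjusted p of edgeR's quasi-likelihood test, over all names of the set, lay under 0.05. No list of miRNAs that define flesh was used to check the tissue label, and phloem-mobile families were followed as markers of another tissue.

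In the stage set, cme-miR164c was low in young fruit, had its lowest mean at 10 DAP and was highest in the 2 oldest ages. At 0 DAP the 3 libraries stood at 2068, 1365 and 2359 CPM, with a mean of 1930 ± 511 (SD, n = 3). At 1 DAP they stood at 1925, 1006 and 2459 CPM, a mean of 1797 ± 735. These first 2 ages overlapped, and replicate 2 was the lowest library in both. At 5 DAP the libraries held 2613, 2697 and 2216 CPM, a mean of 2509 ± 257. At 10 DAP they held 1624, 839 and 963 CPM, a mean of 1142 ± 422, and the highest of them lay below the lowest at 5 DAP.

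At 20 DAP the libraries of cme-miR164c stood at 7285, 9015 and 7687 CPM, with a mean of 7996 ± 905 (SD, n = 3). At 30 DAP they stood at 12312, 15953 and 21351 CPM, a mean of 16539 ± 4548. The lowest library at 20 or 30 DAP, 7285 CPM, was above the highest library of the 4 younger ages, 2697 CPM, and the 20 and 30 DAP libraries did not overlap each other. Without any scaling, the name took 0.130% ± 0.0280 of listed counts at 10 DAP, 0.728% ± 0.0655 at 20 DAP and 0.997% ± 0.133 at 30 DAP. Its place among the 208 names by count lay between 67 and 123 in the libraries up to 10 DAP and between 14 and 25 at 20 and 30 DAP. These values rest on 126 to 1223 raw counts per library, 7750 in all. In flesh as a whole, a changed share of cells and a changed amount of RNA per cell cannot be told apart.

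**Figure D1:**
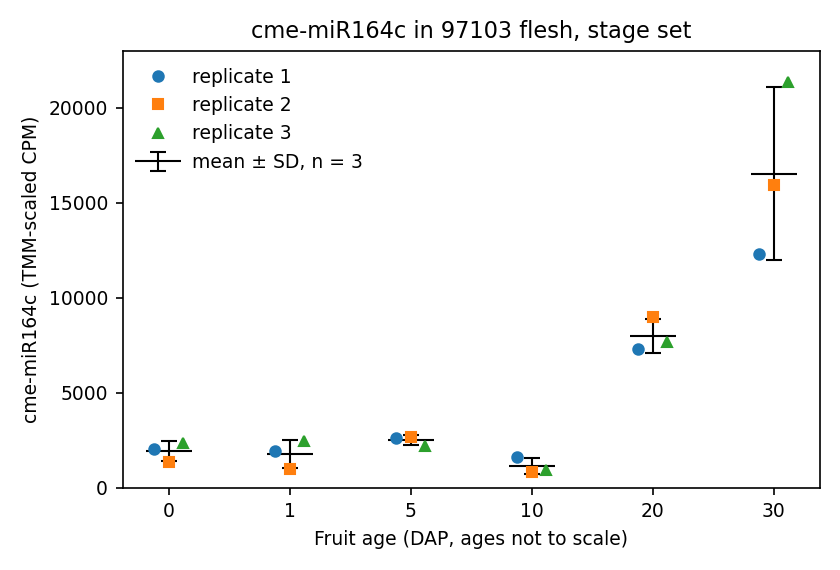
TMM-scaled CPM of cme-miR164c in the 18 stage libraries of 97103 flesh, on a linear axis starting at 0, against fruit age in DAP. Points are libraries, marked by replicate, and bars are the mean ± SD of 3 libraries. All 6 libraries at 20 and 30 DAP lie at or above 7285 CPM, and all 12 younger libraries at or below 2697 CPM.

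Age changed cme-miR164c in the test over all ages (adjusted p = 2.39e-09). That test called 85.8% of the 204 names tested, so a call by itself is common in this set. cme-miR164c rose between 10 and 20 DAP by a log2 fold change of 2.81 (SE 0.31, edgeR adjusted p = 2.88e-06), where 9.31% of names were called higher. That was the second highest change of the 204 names, against a median over all names of -0.08. It rose again between 20 and 30 DAP by 1.05 on the log2 scale (SE 0.29, edgeR adjusted p = 0.0135), a step with 11.3% of names called higher. The call for this last step was lost without 20 DAP replicate 1 or 3 or 30 DAP replicate 2 or 3 (adjusted p 0.0513 to 0.0976) and without scaling factors, where the change was 0.46 (adjusted p = 0.0897).

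Among the younger ages, cme-miR164c fell between 5 and 10 DAP by 1.14 on the log2 scale (SE 0.30, edgeR adjusted p = 0.00811), where 27.5% of names were called lower. Without 5 DAP replicate 2 that call was lost (adjusted p = 0.0605). From 0 to 1 DAP the change was -0.11 (SE 0.29, adjusted p = 0.906), and 0% of names were called there. From 1 to 5 DAP it was 0.48 (SE 0.29, adjusted p = 0.186), and 53.4% of names were called in either direction. This step passed the threshold without 1 DAP replicate 3 (adjusted p = 0.0492). The neighbouring steps thus held 1 fall and 2 rises, after 2 steps that were not called.

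Over longer spans, cme-miR164c was 3.10 higher on the log2 scale at 30 than at 0 DAP (SE 0.31, edgeR adjusted p = 5.81e-08), where 28.4% of names were called higher. From 10 to 30 DAP the log2 fold change was 3.86 (SE 0.32, edgeR adjusted p = 3.22e-08), where 21.1% of names were called higher. It was the third highest of 204 over that span and 23rd from 0 to 30 DAP. Of the 15 pairs of ages, 9 were called higher and 2 lower at the older age, and 4 were not called. Called pairs not given above were 20 against 0 and 20 against 1 DAP, each with 34.8% of names called higher, 30 against 1 DAP, with 27.5%, and 30 against 5 DAP, with 25.5%. The pairs 10 against 1 DAP (adjusted p = 0.0615) and 5 against 0 DAP (adjusted p = 0.281) were not called, where 69.1% and 59.3% of names were. The first of them, a change of -0.66, lay close to the threshold. It was called without scaling factors (adjusted p = 0.00502), with DESeq2 (0.0491), scaled to cme-miR159a (0.000476), and without 1 DAP replicate 2 (0.00699), 10 DAP replicate 1 (0.0114) or 30 DAP replicate 3 (0.0499), and it ran from -0.99 to -0.37 on leaving out 1 library. By mean level the ages were ordered 10, 1, 0, 5, 20 and 30 DAP. In that order 10 and 1, 1 and 0, and 0 and 5 DAP did not pass the test against each other, and 5 and 20 DAP did, with a log2 fold change of 1.67 (SE 0.30, edgeR adjusted p = 0.000124) beside 23% of names called higher.

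The second pair called lower was 10 against 0 DAP, with a log2 fold change of -0.76 (SE 0.30, edgeR adjusted p = 0.0326), where 36.3% of names were called lower. This call was lost on leaving out any of 10 libraries, namely 0 DAP replicates 1 and 3, all 3 replicates at 5 DAP, 10 DAP replicates 2 and 3, 20 DAP replicates 1 and 2, and 30 DAP replicate 2 (adjusted p 0.0524 to 0.132). It was also lost at a minimum count of 50 (-0.69, adjusted p = 0.0618). Without scaling factors the median change over all names from 0 to 30 DAP moved from -0.01 to -1.06, and that of cme-miR164c from 3.10 to 2.01.

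The course of cme-miR164c was also read within each library against cme-miR159a, of the family that targets GAMYB-type MYB factors, a reference chosen after its values were seen. Per 1000 cme-miR159a counts, cme-miR164c stood at 17.6, 17.2 and 19.3 at 0 DAP and at 13.1, 13.4 and 14.5 at 1 DAP. At 5 DAP the libraries gave 10.3, 10.5 and 9.54, and at 10 DAP 7.70, 7.70 and 7.06. At 20 DAP they gave 84.5, 95.2 and 91.6, and at 30 DAP 145, 161 and 135. No age overlapped its neighbour: the ratio was lower at each age up to 10 DAP and higher at each age after it. The ratio was 12.1-fold higher at 20 than at 10 DAP and 19.6-fold higher at 30 than at 10 DAP (two-sided exact permutation p = 0.1 for each pair, the smallest that 3 libraries against 3 allow). In the edgeR fit on TMM-scaled counts these changes were 7.01-fold and 14.5-fold. The reference itself moved with age, so the ratio holds changes of both names. The lowest cme-miR159a count in a library was 10484 at 0 DAP, 31034 at 5 DAP, 16367 at 10 DAP and 4789 at 30 DAP.

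With library sizes set to cme-miR159a, an alternative added after seeing the data, the step from 1 to 5 DAP turned from 0.48 to -0.43 (edgeR adjusted p = 0.0286) and 14 of the 15 pairs of ages were called. The rises after 10 DAP kept their direction. Against cme-miR162, of the family that targets DICER-LIKE1, the lowest mean ratio was also at 10 DAP, with 79.9 ± 9.57 counts of cme-miR164c per 1000, and the highest at 30 DAP, with 1833 ± 153 (SD, n = 3). Against cme-miR166b, of the family that targets HD-ZIP III factors, the lowest was at 1 DAP, with 37.5 ± 8.51, and 10 DAP stood at 124 ± 6.53. The ratio to cme-miR166b at 20 and 30 DAP was 246 ± 13.5 and 379 ± 35.5. The means at 20 and 30 DAP were the highest 2 against each of these 3 references, while the lowest age depended on the reference. Against cme-miR156a, with as few as 6 counts in a library, the 5 DAP libraries gave 21143 to 54833 per 1000 and overlapped those at 20 DAP, with 43714 to 48200.

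**Figure D2:**
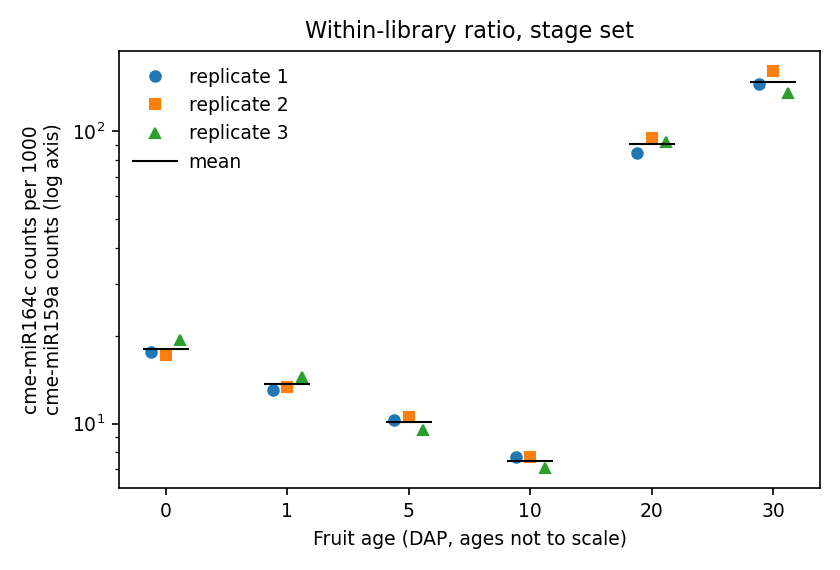
Counts of cme-miR164c per 1000 counts of cme-miR159a in each of the 18 stage libraries, on a log axis, against fruit age in DAP. Points are libraries and lines are the means of 3. The ratio goes from 17.2 to 19.3 at 0 DAP to a mean of 7.49 at 10 DAP and then stands at 90.4 and 147 at 20 and 30 DAP.

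The other stage name, cme-miR164b, was close to the limit of counting. It had 25 counts over the 18 libraries, none in 8 of them, and at most 5 in a library. Summed over the 3 libraries of each age it had 6, 5, 9, 1, 2 and 2 counts from 0 to 30 DAP, with exact 95% counting intervals of 4.12 to 17.1 counts at 5 DAP and 0.0253 to 5.57 at 10 DAP. A library with none allows up to 3 counts. The name did not pass edgeR's filter on low counts, so its change with age was not tested in the main fit of this set. It had 20 of 1171972 listed counts at 0, 1 and 5 DAP and 5 of 886051 at 10, 20 and 30 DAP, a difference that was not tested. Intervals here cover counting error only.

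By Pearson correlation of log2(CPM + 1) over the 18 stage libraries, the names most like cme-miR164c were novel_miR_30 (r = 0.908), novel_miR_121 (0.908), novel_miR_2 (0.854), novel_miR_93 (0.854) and cme-miR319c (0.830). Without scaling factors their correlations were 0.850, 0.850, 0.741, 0.741 and 0.723, and 4 of these 5 names stayed among the 5 most alike. The correlations describe libraries that share age, depth and scaling factors. cme-miR319c, whose family represses TCP factors of organ growth, went from 7546 CPM at 0 DAP to 24398 at 10 DAP and 96938 at 30 DAP, so unlike cme-miR164c it stood higher at 10 than at 0 DAP. novel_miR_30, which the tables give no target or family, went from 12207 to 24939 and 236828 CPM over the same ages. The name least like cme-miR164c was novel_miR_128 (r = -0.873).

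Families that share a role with miR164 were counted in the same comparisons. The ripening regulators other than miR164 were names of miR156, miR157, miR172 and miR1917, whose targets are SPL and AP2-type factors and, for miR1917, an ethylene-signalling kinase in tomato. Of 7 listed names 6 were tested. Between 10 and 20 DAP edgeR called 0 of them, with a list median of 0.86 beside -0.08 for all names, 3 were higher at an unadjusted p under 0.05, and DESeq2 called 0. Between 10 and 30 DAP, where 21.1% of all names were called higher and 23% lower, 5 of the 6 rose and none fell, with a median of 1.45 beside -0.06. All 5 were miR156 names with log2 fold changes of 1.37 to 1.54, near-copies in part, such as cme-miR156a with 1.49 (SE 0.43, edgeR adjusted p = 0.00935) and cpa-miR156b with 1.52. The 1 tested miR172 name, cme-miR172b, had -0.56 (adjusted p = 0.233). Between 0 and 30 DAP, edgeR and DESeq2 each called 0 higher and 1 lower, cme-miR172b, with a list median of 0.61. cme-miR164c was called in all 3 of these spans.

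The organ growth and boundary families other than miR164 were names of miR160, miR165, miR166, miR171, miR319 and miR396, of which 10 of 11 listed names were tested. From 0 to 30 DAP, where 28.4% of all names were called higher and 39.2% lower, 2 of them rose and 6 fell, with a median log2 fold change of -3.68 beside -0.01 for all names. From 10 to 20 DAP, where 9.31% were called higher and 10.3% lower, 2 rose and 1 fell. The 2 that rose were cme-miR319c, with a log2 fold change of 1.64 (SE 0.27, edgeR adjusted p = 0.000386), and cme-miR166b, with 1.83 (SE 0.26, edgeR adjusted p = 5.02e-05). The 1 that fell was cme-miR171a, of the family that targets GRAS factors, with -2.19 (SE 0.72, edgeR adjusted p = 0.0422). The change of cme-miR164c in that step, 2.81, lay above each of these values.

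The phloem-mobile families had 1 name in the stage set, cme-miR2111a, of a family known in Lotus as a shoot-to-root signal. It stood at 84.6 ± 3.96 CPM at 0 DAP, 785 ± 318 at 10 DAP, 669 ± 99.7 at 20 DAP and 1601 ± 527 at 30 DAP (SD, n = 3). Between 10 and 20 DAP, the step with the largest rise of cme-miR164c between neighbouring ages, its change was -0.22 and was not called. Between 0 and 30 DAP it rose by 4.23 and between 20 and 30 DAP by 1.26 on the log2 scale, and its part in the change of cme-miR164c over those spans was not tested.

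In the genotype set, the 76 miR164 names fell into 10 groups, formed by joining names whose log2(count + 1) differed by at most 0.1 across all libraries. The group of cme-miR164c held 44 names in 23 vectors, and that of cme-miR164d held 18 names in 8 vectors. The group of bdi-miR164c held 4 names in 3 vectors, with osa-miR164d, sbi-miR164b and zma-miR164f-5p. bna-miR164b shared 1 vector with bna-miR164c and bna-miR164d, and aly-miR164c-5p shared 1 with ath-miR164c. cme-miR164a, cme-miR164b, zma-miR164h-5p, hci-miR164a and osa-miR164e stood alone. How reads matching more than 1 name were assigned is not given in the sources used here, so names with near-equal counts are read as copies of each other, and vectors are not independent measurements.

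The counts of some groups were close to sums of others, a relation noticed after the counts were seen. cme-miR164d exceeded cme-miR164c by 107 and 21 counts in 97103 at 10 DAP, 3047 and 949 in 97103 at 30 DAP, 52 and 119 in PI296341FR at 10 DAP, and 649 and 2725 in PI296341FR at 30 DAP. aly-miR164c-5p had 125 and 71, 3034 and 948, 61 and 120, and 645 and 2708 counts in the same libraries. The gap between both quantities ran from -50 to 17 counts. The excess of cme-miR164a over bdi-miR164c was of the same order, with 99 and 11, 2829 and 669, 46 and 106, and 590 and 2457 counts. The cause was not tested. For the comparisons below it means that cme-miR164d, cme-miR164c and aly-miR164c-5p may not be separate measurements, and neither may cme-miR164a and bdi-miR164c.

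The group with the highest counts summed over the 8 libraries, led by cme-miR164d, stood higher at 30 than at 10 DAP in every library of both genotypes. This difference did not pass edgeR's test. The group was not the most abundant in 97103 at 10 DAP, where cme-miR164a held 117 and 374 CPM and bdi-miR164c 108 and 372. In 97103 the 2 libraries at 10 DAP held 51.4 and 123 CPM of cme-miR164d and those at 30 DAP 661 and 509. In PI296341FR they held 151 and 140 CPM at 10 DAP and 895 and 726 at 30 DAP. The ages did not overlap in either genotype. In raw counts these values were 569 and 1087, 13275 and 12555, 296 and 633, and 2844 and 7851.

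cme-miR164c, the name also measured in the stage set, ran close beside it. It stood at 41.7 and 121 CPM in 97103 at 10 DAP and at 509 and 471 at 30 DAP. In PI296341FR it stood at 124 and 113 CPM at 10 DAP and at 690 and 474 at 30 DAP. aly-miR164c-5p held 11.3 and 8.06 CPM in 97103 at 10 DAP and 151 and 38.4 at 30 DAP, and in PI296341FR 31.0 and 26.5 and then 203 and 250. For these names every 30 DAP library was above every 10 DAP library of its genotype.

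Of the other members, bdi-miR164c, cme-miR164a and cme-miR164b ran the opposite way or in no common direction. bdi-miR164c held 108 and 372 CPM in 97103 at 10 DAP and 24.1 and 26.3 at 30 DAP, without overlap. In PI296341FR it held 39.7 and 134 CPM at 10 DAP and 43.4 and 43.1 at 30 DAP, and there the ages overlapped. cme-miR164a held 117 and 374 CPM and then 165 and 53.4 in 97103, with overlap. In PI296341FR cme-miR164a held 63.1 and 157 CPM and then 229 and 270, without overlap. cme-miR164b was rare, with 62 and 37 counts in 97103 at 10 DAP and 7 and 9 at 30 DAP, and with 4 and 25 and then 4 and 11 in PI296341FR. The remaining low vectors, bna-miR164b, zma-miR164h-5p, hci-miR164a and osa-miR164e, had between 9 and 280 counts in a library. Like cme-miR164d, each had every 30 DAP library above every 10 DAP library of its genotype in CPM. Their log2 fold changes with age were 1.12 to 1.25 in 97103 and 1.42 to 1.73 in PI296341FR, and none was called.

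**Figure D3:**
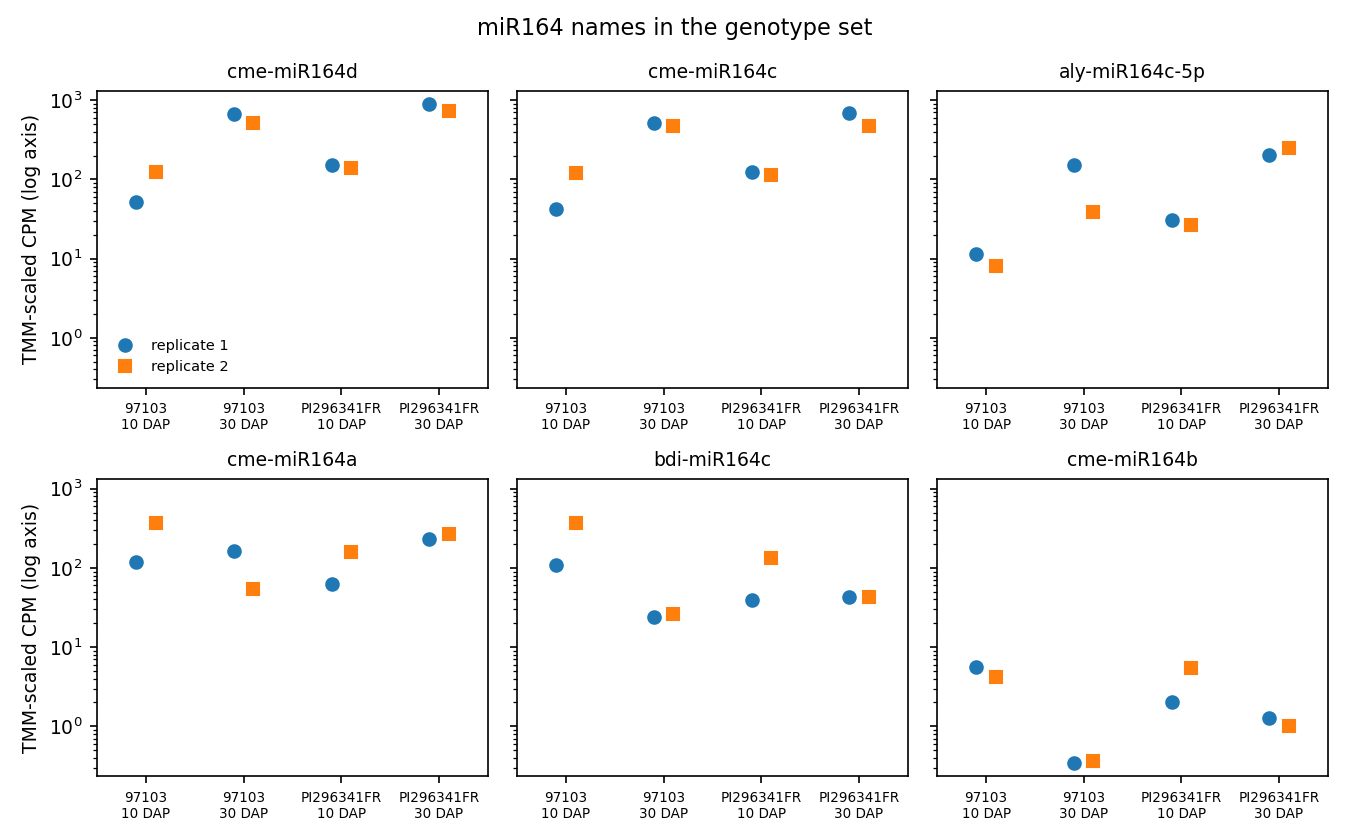
TMM-scaled CPM of 6 miR164 names in the 8 libraries of the genotype set, on log axes, by genotype and age. Points are libraries, with circles for replicate 1 and squares for replicate 2. cme-miR164d, cme-miR164c and aly-miR164c-5p lie higher at 30 DAP in both genotypes, whereas cme-miR164b lies lower at 30 DAP in both and bdi-miR164c in 97103.

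Within 97103, edgeR called 0 of the 41 miR164 vectors higher and 1 lower at 30 than at 10 DAP, where 0% of the 425 distinct vectors tested were called higher and 8.24% lower. The vector called lower was cme-miR164b, with a log2 fold change of -3.74 (SE 0.99, edgeR adjusted p = 0.0378). This call was lost without 97103 30 DAP replicate 1 (adjusted p = 0.0743) or replicate 2 (0.218), without PI296341FR 30 DAP replicate 2 (0.0580), and with RLE factors, with -2.72 (0.0699). At an unadjusted p under 0.05, 32 vectors were higher and 4 lower. Those higher were the 31 vectors of the cme-miR164c and cme-miR164d groups and aly-miR164c-5p, which may not be separate measurements. Those lower were the group of bdi-miR164c and cme-miR164b. cme-miR164d had a log2 fold change of 2.74 (SE 1.17, edgeR adjusted p = 0.0902), cme-miR164c 2.59 (SE 1.15, adjusted p = 0.0948) and aly-miR164c-5p 3.29 (SE 1.28, adjusted p = 0.0519). bdi-miR164c had -3.25 (SE 1.27, edgeR adjusted p = 0.0527) and cme-miR164a -1.17 (SE 1.09, adjusted p = 0.487).

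The count of calls in 97103 depended on the tool and scaling. DESeq2 called 36 miR164 vectors higher and 1 lower, where it called 30.4% of distinct vectors higher, or 129 of 425. Shares of distinct vectors here and below include the miR164 vectors themselves, and the numbers called count near-copies as separate vectors. With edgeR's RLE factors in place of TMM, 32 were called higher beside 8.71% of distinct vectors, or 37 of 425, so most of the calls were miR164 vectors. The median change over all listed names then moved from -0.75 to 0.47. cme-miR164c had a log2 fold change of 3.78 both with RLE factors and with DESeq2, beside 2.59 in the main fit. These 2 settings are therefore not separate checks of the scaling. Leaving out 97103 30 DAP replicate 2 also gave 32 called higher, beside 7.51% of distinct vectors. Leaving out replicate 1 of that group gave 0 calls beside 3.29% called in either direction, and leaving out PI296341FR 30 DAP replicate 2 gave 0 beside 0.939%. Leaving out 97103 10 DAP replicate 1 gave 4, all lower, beside 8.69% called lower. The median log2 fold change of the 41 vectors was 2.60, beside -0.75 for all listed names.

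Within PI296341FR, edgeR called 0 of the 41 vectors higher or lower at 30 than at 10 DAP, where 0% of distinct vectors were called higher and 2.82% lower. At an unadjusted p under 0.05, 32 vectors were higher and none lower, and DESeq2 called 32 higher beside 7.53% of distinct vectors. That share was 32 of 425, so all vectors that DESeq2 called higher there were miR164 vectors. cme-miR164d, cme-miR164c and aly-miR164c-5p were among them, and near-copies of these names make up most of such a number. RLE factors also gave 32, beside 7.76%, or 33 of 425 with miR164 included. Leaving out 97103 30 DAP replicate 2 gave 32, beside 7.75%, and fitting 1 name per distinct vector gave 32, beside 7.76%. With counts summed per family, the miR164 family had a log2 fold change of 4.60 and was called higher (edgeR adjusted p = 0.0353), and in 97103 the family sum had 3.28 and was not called (adjusted p = 0.0847). That fit took its scaling factors from the summed counts, and the sum holds near-copies. No single vector exceeded 2.98 in PI296341FR in the main fit, so 4.60 is not on the same scale as those values. The share of families called in the summed fit is not given here. cme-miR164d had a log2 fold change of 2.48 (SE 1.16, edgeR adjusted p = 0.168), cme-miR164c 2.29 (SE 1.14, adjusted p = 0.174) and aly-miR164c-5p 2.98 (SE 1.26, adjusted p = 0.129). Leaving out 97103 10 DAP replicate 1 or replicate 2 brought 1 call, of aly-miR164c-5p (adjusted p = 0.0485 and 0.0466), beside 0.235% of distinct vectors called higher in each case. bdi-miR164c had -1.01 (SE 1.18, edgeR adjusted p = 0.625) and cme-miR164a 1.18 (SE 1.09, adjusted p = 0.484). The median of the 41 vectors was 2.30, beside -1.18 for all listed names.

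**Figure D4:**
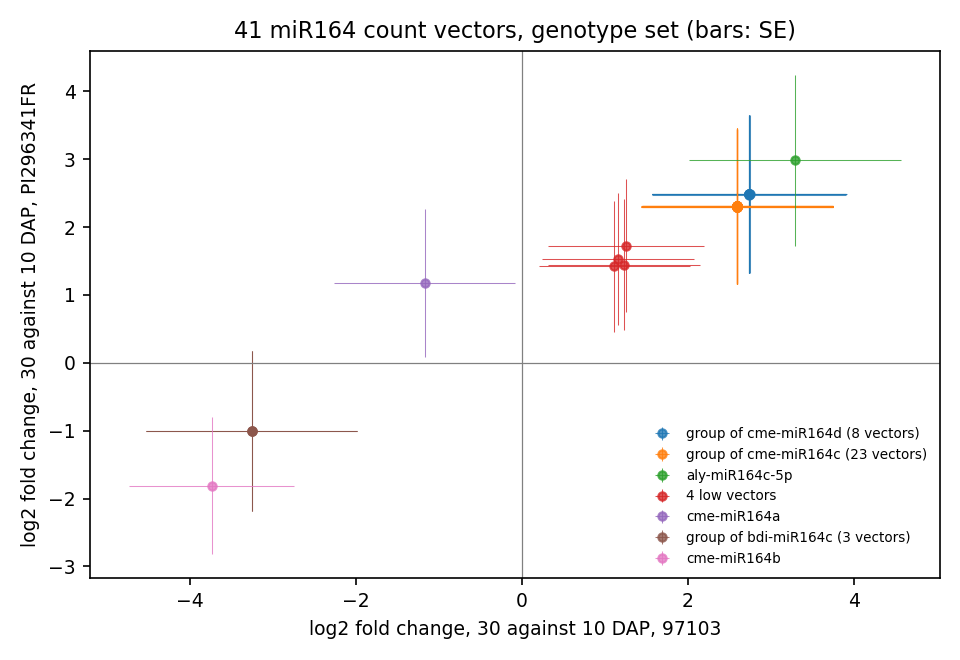
Log2 fold change from 10 to 30 DAP in PI296341FR against that in 97103 for the 41 miR164 vectors of the genotype set, with bars of 1 SE. The 31 vectors of the cme-miR164d and cme-miR164c groups lie at 2.59 to 2.74 in 97103 and 2.29 to 2.49 in PI296341FR, and those of bdi-miR164c and cme-miR164b lie below 0 in both.

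No miR164 vector was called between genotypes at either age. The PI296341FR libraries of cme-miR164d lay above those of 97103 at both ages, while for cme-miR164c the genotypes overlapped at both. At 10 DAP, PI296341FR against 97103, edgeR called 0 of 41 vectors, with 0.235% of distinct vectors called, and 0 had an unadjusted p under 0.05. cme-miR164d had a log2 fold change of 0.73 (SE 1.11, edgeR adjusted p = 0.707) and cme-miR164c 0.54 (SE 1.09, adjusted p = 0.788). At 30 DAP edgeR called 0 of 41 vectors, where 30.1% of distinct vectors were called, 8.47% higher and 21.6% lower, and 0 had an unadjusted p under 0.05. cme-miR164d had 0.47 (SE 1.10, edgeR adjusted p = 0.919) and cme-miR164c 0.25 (SE 1.09, adjusted p = 0.919). DESeq2 called 0 of 41 at either age. The 41 vectors had a median of 0.55 at 10 DAP and 0.26 at 30 DAP, beside 0.05 and -0.03 for all listed names.

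Scaling moved the comparison at 30 DAP. Without scaling factors 18 of 41 vectors were called higher in PI296341FR, beside 26.1% of distinct vectors, and the median over all listed names was 1.70. Fitting 1 name per distinct vector called 2, aly-miR164c-5p and cme-miR164a, both higher in PI296341FR, beside 13.2% of distinct vectors called higher. In the test of whether the change with age differed between genotypes, edgeR called 0 of 41 vectors, with 0.471% of distinct vectors called, 0 at an unadjusted p under 0.05 and 0 by DESeq2. cme-miR164c had an interaction of -0.30 (SE 1.54, edgeR adjusted p = 0.978) and cme-miR164a, the most different between genotypes, 2.35 (SE 1.55, adjusted p = 0.554).

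The counts of miR164 names relative to each other within a library do not depend on scaling. Per 100 cme-miR164c counts, bdi-miR164c had 260 and 308 in 97103 at 10 DAP and 4.73 and 5.58 at 30 DAP. In PI296341FR it had 32.0 and 118 and then 6.29 and 9.09. All 4 libraries at 30 DAP lay below all 4 at 10 DAP. cme-miR164b ran the same way, with 13.4 and 3.47 and then 0.0684 and 0.0775 in 97103, and 1.64 and 4.86 and then 0.182 and 0.215 in PI296341FR.

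Two-sided exact permutation tests of 4 libraries against 4 compared the ages with both genotypes pooled, permuting over all libraries of the set without regard to genotype. The log2 ratio of bdi-miR164c differed by -4.40 between 30 and 10 DAP and that of cme-miR164b by -5.19. Each had exact permutation p = 0.0286, the smallest such a test allows when genotype is ignored. Over the 18 ratio tests made, of 9 names by age and by genotype, each adjusted p was 0.147, and none passed. The ratio of cme-miR164a differed by -2.45 (exact permutation p = 0.0571) with 281 and 309, 32.4 and 11.3, 50.8 and 139, and 33.2 and 57.0 per 100, and here the ages overlapped. By genotype the lowest exact permutation p was 0.257, in tests that pooled both ages, so changes with age add to the spread there.

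The ratio of aly-miR164c-5p to cme-miR164c followed replicate number more than age in 97103. Replicate 1 had 27.1 at 10 DAP and 29.7 at 30 DAP per 100 cme-miR164c counts, and replicate 2 had 6.66 and 8.17. In PI296341FR the values were 25.0 and 23.3 at 10 DAP and 29.4 and 52.8 at 30 DAP. The labels do not say what a shared replicate number stands for, and a source of this pattern was not tested.

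**Figure D5:**
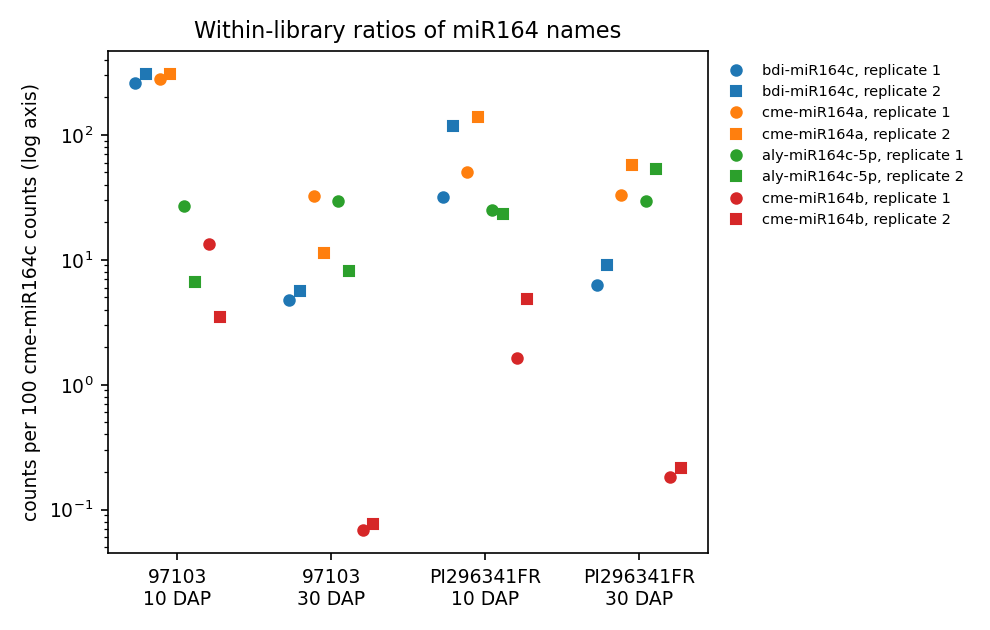
Counts of 4 miR164 names per 100 cme-miR164c counts in the 8 libraries of the genotype set, on a log axis. Circles are replicate 1 and squares replicate 2. bdi-miR164c lies at 32.0 or above in all 10 DAP libraries and at 9.09 or below in all 30 DAP libraries.

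Over the 8 genotype libraries, the other members closest to cme-miR164d were cme-miR164c (Pearson r = 0.994) and aly-miR164c-5p (0.902), while cme-miR164a had 0.138, bdi-miR164c -0.685 and cme-miR164b -0.869. Outside the family, the 5 most alike were cme-miR858 (0.490), osa-miR166e-3p (0.349), novel_mir_105 (0.254), cme-miR397 (0.204) and aly-miR397a-5p (0.203), so no name of another family had r above 0.490. These are descriptions over libraries that share scaling factors. The ripening families other than miR164 had 78 tested vectors in this set, of which edgeR called 0 with age in either genotype. At an unadjusted p under 0.05, 1 was lower in 97103 and 5 in PI296341FR, and DESeq2 called 7 higher in 97103, beside 30.4% of all distinct vectors, and 0 in PI296341FR. The organ growth and boundary families had 158, of which edgeR called 0 higher and 8 lower with age in 97103, beside 0% and 8.24% of all distinct vectors, while DESeq2 called 83 higher, beside 30.4%, and 1 lower. In PI296341FR edgeR called 0 higher and 5 lower, beside 0% and 2.82%, and DESeq2 called 0. At an unadjusted p under 0.05, 1 was higher and 14 lower in 97103 and 0 higher and 13 lower in PI296341FR. At 30 DAP 10 of these 158 were called higher and 84 lower in PI296341FR than in 97103, beside 8.47% and 21.6% of all distinct vectors, a comparison in which no miR164 vector was called. The 20 vectors of phloem-mobile families summed to 1278 and 4159 CPM in 97103 at 10 DAP, 864 and 2154 at 30 DAP, and 2838 and 2287 and then 611 and 1021 in PI296341FR, and edgeR called 0 of 20 higher and 5 lower with age in each genotype, beside 8.24% of all distinct vectors called lower in 97103 and 2.82% in PI296341FR, where DESeq2 called 0 of 20. Their part in the miR164 values was not tested.

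97103 at 10 and 30 DAP was measured in both sets, and cme-miR164c and cme-miR164b are among 18 names the sets share. In a joint fit of those 18 names, cme-miR164c had a change from 10 to 30 DAP of 2.83 on the log2 scale among stage libraries and 1.30 among genotype libraries. Each set fitted alone gave 3.86 and 2.59. The joint fit took its scaling factors from the 18 names and its spread from both sets together. The difference of these changes was -1.53 (SE 1.06, edgeR adjusted p = 0.197) and was not called, where 27.8% of the shared names were. It ran from -2.13 to -0.26 on leaving out 1 library, with -0.26 without stage 30 DAP replicate 2, was -0.48 with library totals over all names, and was 0.14 with RLE factors. Levels were not tested across sets, since the tables list different names, and are set side by side only. Per 1000 cme-miR159a counts, cme-miR164c had 7.06 to 7.70 at 10 DAP in the stage set and 292 and 646 in the genotype set, and 135 to 161 against 7949 and 32063 at 30 DAP. The genotype values rest on as few as 319 cme-miR159a counts in 97103.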

How the data were processed

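Trizol extraction of flesh, gel purification of RNA shorter than 100 nt and Illumina library preparation are given per the labels' protocols. Among tools, fastp and BWA appear in the submitters' processing notes, neither with a stated role or version. Genome build, miRNA reference and read assignment were not given in the sources used here. The authors deposited 1 table per library with raw counts by miRNA name, and 0 columns of per-sample values were left unused. Reads that match several names may have been counted under each, which would make names of a family alike and inflate sums over names. No sequence table was used, so no sequence is printed.

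Groups, ages and replicate numbers were taken from the labels. The members, family lists and tests were chosen with earlier results of these data known. Each set was fitted alone in R 4.3.3 with edgeR 4.0.16 over all its names (filterByExpr with minimum count 10, TMM factors, glmQLFit and glmQLFTest, Benjamini-Hochberg adjustment), which tested 204 stage names and 1261 genotype names, the latter with 425 distinct count vectors. The set-by-age test joined 97103 libraries of both sets over 18 shared names. DESeq2 1.42.0 and the other settings served as alternatives. Named outside the family were the 5 names most correlated with cme-miR164c (stage set) or with cme-miR164d (genotype set, other families, 1 per distinct vector). Inside it, 1 name stood for each vector, cme names first. The fits were tested on simulated counts. Ratios were tested with exact permutation tests in Python 3.11.15 with scipy 1.17.1. No replicate pair agreed within sampling noise (largest chi-square p = 1.79e-11 over the 18 stage pairs). The labels mention no molecular identifiers, so counting intervals cover counting error only.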

Additional observations from a re-analysis of the deposited data

Results flagged for a closer look

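The change of cme-miR164b from 10 to 30 DAP in 97103 differed between the genotype set and the stage set by -7.14 on the log2 scale (SE 2.35, edgeR adjusted p = 0.0136), and it stands out because the test of that difference passed. The stage libraries had 0, 0 and 1 counts at 10 DAP and 1, 0 and 1 at 30 DAP, while the genotype libraries had 62 and 37 and then 7 and 9. The fitted size therefore depends on a handful of counts and is no bound. The call was lost without stage 30 DAP replicate 1 (adjusted p = 0.0971), replicate 2 (0.189) or replicate 3 (0.0885) and without genotype-set 97103 30 DAP replicate 2 (0.0663), and also with RLE factors, with -5.11 (0.123), or library totals over all names, with -5.55 (0.165). Sets differ in replicates, depth and listed names, which cannot be told apart from the difference.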

How the results depend on the processing

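The rises of cme-miR164c from 0 to 30, 10 to 30 and 10 to 20 DAP and the test over all ages kept their direction and their call under every alternative run, with log2 fold changes of 2.01 to 3.27, 2.94 to 4.29 and 2.48 to 3.59. The change from 0 to 1 DAP ran from -0.40 to 0.23 on leaving out 1 library. The change from 1 to 5 DAP ran from 0.13 to 0.77 and was -0.43 scaled to cme-miR159a. That from 5 to 10 DAP ran from -1.48 to -0.96 on leaving out 1 library and from -1.16 to -0.44 over the other settings. That from 20 to 30 DAP ran from 0.81 to 1.23 on leaving out 1 library, with 0.46 without scaling factors. From 0 to 5 DAP the change was -0.0777 without scaling factors and -0.83 scaled to cme-miR159a.

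Of 41 genotype-set vectors, the number called with age in 97103 was 1, against 32 with RLE factors, 4 without scaling factors, 0 at a minimum count of 50, which removes cme-miR164b, 37 with DESeq2 and 0 to 32 on leaving out 1 library. In PI296341FR it was 0, against 32 with RLE factors, DESeq2 or 1 name per vector, and 0 to 32 on leaving out 1 library, and the sum of the family was called (4.60). Between genotypes at 30 DAP it was 0, against 18 without scaling factors and 2 with 1 name per vector. The family sum was fitted with scaling factors of its own. The numbers of vectors called count near-copies as separate vectors. Without scaling factors the median change with age in 97103 over all listed names was -1.68. The share of all vectors called in that setting is not given here. Changes of sign among single names were these. With age in 97103, cme-miR164a had 0.0474 with RLE factors and 0.0474 with DESeq2, and -1.77 to 0.11 on leaving out 1 library. With age in PI296341FR, bdi-miR164c had 0.11 without scaling factors, 0.32 with 1 name per vector and -1.63 to 0.22 on leaving out 1 library. Between genotypes at 10 DAP, leaving out 1 library gave cme-miR164b -1.27 to 0.17 and cme-miR164c -0.0280 to 1.51. The family sum, which is not a single name, had -0.20 at 10 DAP beside 0.73 for cme-miR164d in the main fit. At 30 DAP, leaving out 1 library gave cme-miR164c -0.0522 to 1.11. The interaction was 1.62, 1.18 and -1.26 to 0.28 for cme-miR164c without scaling factors, with 1 name per vector and on leaving out 1 library. In that order it was 1.58, 1.25 and -1.03 to 0.24 for cme-miR164d and 1.31, 1.59 and -0.57 to 0.94 for aly-miR164c-5p. For the family sum the interaction was 1.32, beside -0.26 for cme-miR164d in the main fit. The set-by-age difference of cme-miR164c was 0.14 with RLE factors. The cause of each change was not tested.

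The labels give the same replicate numbers to several groups, and say nothing of what a number stands for. Same-numbered libraries deviated together in some pairs and not in others (correlations -0.32 to 0.76, median -0.05, in the stage set and -0.44 to 0.54, median 0.10, in the genotype set), so the numbers were not taken to pair the samples. As a hint from the data, 11 of 18 stage and 6 of 8 genotype libraries were most alike to a library of their own number. With the replicate number as a block, 5 of 41 vectors were called with age in 97103, namely aly-miR164c-5p higher and cme-miR164b and the 3 vectors of bdi-miR164c lower, and the block changed no other call. The share of all vectors called with the block is not given here. With 2 libraries in each genotype group, the high dispersion limits what could be called, and cme-miR164b is limited by its counts in both sets.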
